A study of Mus musculus with 23 samples.

Results

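Digestive enzymes made by the acinar cells of the pancreas were followed through a liver study: Cpb1, Pnlip, Try4, Prss2, Cela3b, Cela1, Cpa1, Clps, Ctrl and Amy2a5, 10 of the 37163 genes that could be tested on the array. Of the 37163, 20022 stood under a gene symbol and the rest under a sequence or probe name, each counted as a gene here. The 10 genes were chosen from measured values of these same arrays, because their levels stood out in single livers, so their levels are given as a description and not as a test. The array carried 12 probes for them out of 55681, with a second probe each for Clps and Amy2a5.

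Livers came from 23 female B6C3F1 mice, 5 to 6 weeks old when bought and given at least 7 days to settle, which were gavaged for 21 days and killed 4 h after the last dose. The control group had 5 mice on corn oil alone, and furan in corn oil was given at 1 mg/kg to 4 mice, at 2 mg/kg to 5, at 4 mg/kg to 4 and at 8 mg/kg to 5. RNA from about 100 mg of frozen liver per mouse (RNA integrity number above 8.9, per the labels) was labelled with Cy5, a universal mouse reference RNA with Cy3, and each pair was hybridised to 1 array without a dye swap. The series text counts 25 samples and 23 were analysed here; furan is a liver toxicant, and the series asked how its dose changed liver gene expression.

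Acinar cells fill the exocrine pancreas and secrete, as zymogens or active enzymes, the proteases, lipases and amylase that digest food in the gut. Transcripts of these enzymes are among the most abundant in the pancreas and most are not known as products of hepatocytes. Their shared acinar expression is known to depend on the factor PTF1, which holds PTF1A with RBPJL or RBPJ, and on NR5A2. The PTF1 site joins an E box with the letters CACCTG to a second element, TTTCCCA.

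Promoter sequence of the members was read as a description, and whether it bears on their levels on these arrays was not tested. RefSeq promoters (build GRCm38.p6, 250 bases before to 50 bases after each gene's start) were held for 9 of the 10 members, all but Clps. Both strands were searched for 3 motifs, the E box CACCTG, the RBPJ element TTTCCCA and the NR5A2 element CAAGGTCA, and no motif is part of another. CACCTG was in 6 of the 9 members, namely Cpb1, Try4, Prss2, Cela3b, Cela1 and Ctrl, against 20.2% of all 32851 promoters in the table. TTTCCCA was in 2 of 9, Prss2 and Cpa1, against 8.06% of the table, and CAAGGTCA was in 0 of 9 against 1.56%. The 4 promoters printed here are those of Cpb1 (chr3:20275684-20275983, minus strand), the member with the widest spread between livers, Prss2 (chr6:41521526-41521825, plus strand), the single member with both elements of the PTF1 site, Cela1 (chr15:100687871-100688170, minus strand), whose probe was well above background in every liver, and Pnlip (chr19:58670115-58670414, plus strand), which held none of the 3 motifs. Capitals mark the motif letters on either strand, and each line runs 5′ to 3′ along the gene.
Cpb1: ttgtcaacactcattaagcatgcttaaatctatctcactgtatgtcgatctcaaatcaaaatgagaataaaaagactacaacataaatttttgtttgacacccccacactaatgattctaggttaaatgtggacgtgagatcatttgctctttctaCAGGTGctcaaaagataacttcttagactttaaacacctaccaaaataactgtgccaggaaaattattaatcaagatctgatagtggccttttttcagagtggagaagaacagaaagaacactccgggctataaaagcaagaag
Prss2: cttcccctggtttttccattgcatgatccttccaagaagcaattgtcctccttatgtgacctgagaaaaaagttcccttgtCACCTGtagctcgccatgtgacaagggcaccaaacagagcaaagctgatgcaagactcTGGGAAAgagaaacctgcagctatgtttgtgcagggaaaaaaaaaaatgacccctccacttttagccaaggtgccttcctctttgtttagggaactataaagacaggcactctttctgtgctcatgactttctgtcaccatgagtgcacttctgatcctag
Cela1: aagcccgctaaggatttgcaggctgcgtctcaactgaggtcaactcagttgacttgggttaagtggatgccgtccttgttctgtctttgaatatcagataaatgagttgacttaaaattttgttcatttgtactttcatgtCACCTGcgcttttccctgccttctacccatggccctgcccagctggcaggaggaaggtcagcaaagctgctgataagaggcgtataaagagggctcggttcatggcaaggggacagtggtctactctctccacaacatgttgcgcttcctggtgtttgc
Pnlip: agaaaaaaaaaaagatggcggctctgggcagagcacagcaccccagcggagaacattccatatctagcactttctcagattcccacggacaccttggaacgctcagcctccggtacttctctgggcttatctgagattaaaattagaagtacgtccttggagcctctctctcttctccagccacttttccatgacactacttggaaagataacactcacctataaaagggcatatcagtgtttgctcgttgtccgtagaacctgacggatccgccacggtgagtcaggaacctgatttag
In Prss2 the E box began 169 bases before the start and the TTTCCCA match 111 bases before it. They were 2 separate matches and not 1 joined PTF1 site. In Cpb1 and Cela1 the E box began 94 and 109 bases before the start. These matches describe letters in a window and are not measured binding sites.

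Transcripts of 9 of the 10 genes, all but Amy2a5, had their 4 highest log2 ratios in the same 4 livers, which were replicates 1 and 5 of the 2 mg/kg group, replicate 1 of the 4 mg/kg group and replicate 5 of the 8 mg/kg group. On these 4 arrays the Cy5 signal of all 10 members was well above background, the mark that the scanner software sets for a spot clearly brighter than its surroundings. On each of the other 19 arrays only 4 of the 10 members had that mark, and these were Cela1, Clps, Ctrl and Amy2a5. All 5 control livers and all 4 livers at 1 mg/kg were among those 19. The 4 arrays lay on 3 of the 5 slides, 2 on slide 1 and 1 each on slides 2 and 3, beside arrays without the pattern on each slide. In whole tissue, fewer cells of a type and less RNA per cell cannot be told apart.

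The brightest probe stood for each gene, and its value was log2 of Cy5 over Cy3 after loess within the array. Cpb1 encodes carboxypeptidase B, which trims basic residues from the ends of peptides. Its log2 ratios in the 5 controls were 0.21, 0.00, -0.02, -0.87 and 0.34, and at 1 mg/kg they were 0.56, 0.79, -0.19 and 0.89. The 2 mg/kg livers gave Cpb1 log2 ratios of 9.64, 1.59, 0.23, 0.05 and 10.65 in replicate order. The 4 mg/kg livers gave 10.90, -0.16, 0.46 and 0.20, and the 8 mg/kg livers 0.10, -0.27, -0.47, -0.04 and 9.45. A single liver or a pair stood far above the rest of its dose group, and the remaining livers of every dose group overlapped the controls. The Cpb1 Cy5 signal was 34130, 7699, 23660 and 3898 on the 4 arrays (2 mg/kg replicate 1, then its replicate 5, 4 mg/kg replicate 1, 8 mg/kg replicate 5), against 7.34 to 22.9 on the other 19.

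Cpa1, carboxypeptidase A1, which removes aromatic and aliphatic residues, had log2 ratios of 4.77, 6.44, 5.91 and 5.40 on the same 4 arrays. On the other 19 arrays the Cpa1 log2 ratio ran from -1.25 to 1.96 with a median of 0.05, and its Cy5 signal was not well above background there. The 4 livers at 1 mg/kg read 1.96, 1.04, 1.49 and 0.68 for Cpa1 against -0.11, -0.46, 0.81, -0.31 and 0.01 in the controls, ranges that overlapped.

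The lipid-digesting pair were Pnlip, pancreatic triglyceride lipase, and Clps, its cofactor colipase. Pnlip had log2 ratios of 8.53, 8.45, 9.61 and 7.67 on the 4 arrays, in that order. On the other 19 the Pnlip log2 ratio lay between -0.65 and -0.03, the narrowest band of any member. The brighter Clps probe had log2 ratios of 6.26, 6.62, 6.62 and 5.17 in the same order, against -0.07 to 1.14 elsewhere, and was well above background on all 23 arrays. The second Clps probe had 6.80, 7.55, 8.11 and 6.09, against -0.58 to 0.26, and was well above background on the same 4 arrays alone. Both Clps probes therefore separated the same livers, from different backgrounds.

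The trypsinogens Try4 and Prss2, precursors of the protease that activates the other zymogens, gave log2 ratios of 7.83, 7.71, 8.16 and 6.61 for Try4 and 6.08, 7.02, 6.87 and 6.02 for Prss2. Elsewhere the Try4 log2 ratio lay between -3.34 and -1.27 and that of Prss2 between -1.20 and 1.17. Mouse trypsinogens are close copies of each other, so how far each probe reads its neighbours' transcripts is uncertain.

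Cela3b and Cela1 encode elastases and Ctrl a chymotrypsin-like protease. Cela3b had log2 ratios of 6.13, 6.68, 7.18 and 6.39 on the 4 arrays against -0.91 to 0.81 on the others. Cela1 had 4.49, 1.91, 3.89 and 2.02 against -0.93 to 0.68, and Ctrl had 4.08, 3.72, 4.45 and 2.92 against 0.07 to 1.23. Cela1 was the member whose lowest value on the 4 arrays came closest to the other livers, apart from Amy2a5. The Cela1 Cy5 signal of 1682 in replicate 5 at 8 mg/kg stood against a highest signal of 707 elsewhere, in replicate 3 at 1 mg/kg.

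**Figure D1:**
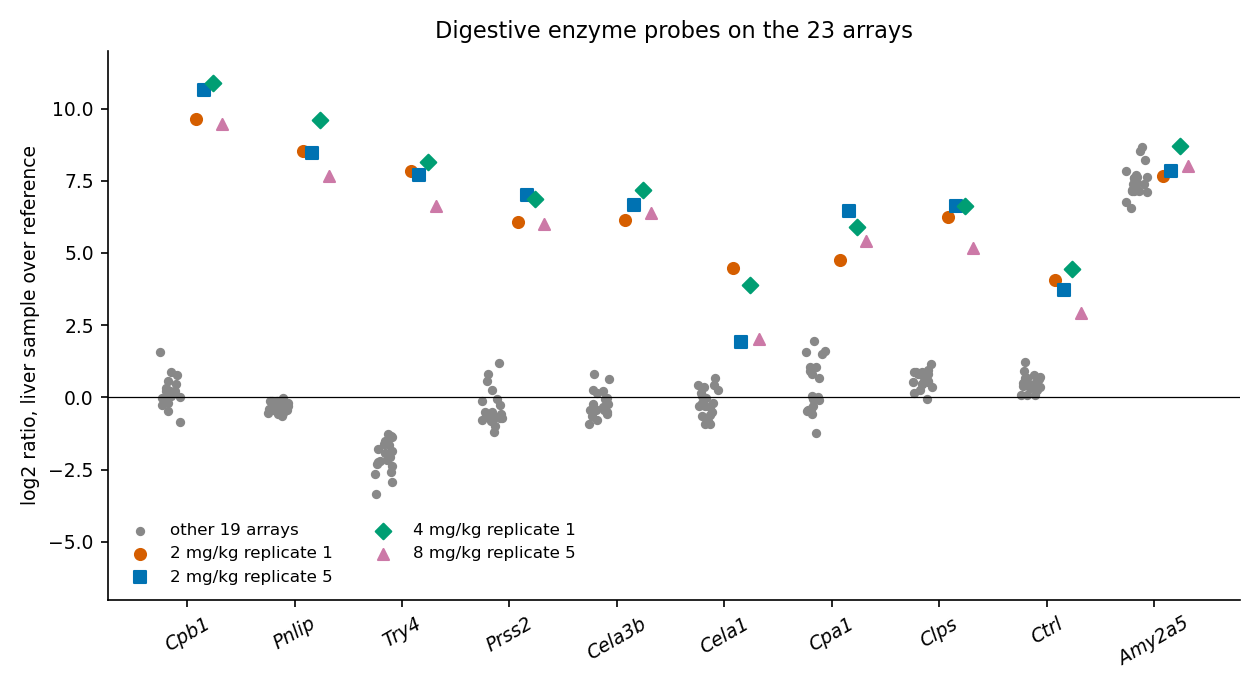
Log2 ratio of liver sample over reference (y axis) for the brightest probe of each of the 10 genes (x axis), with 1 point per array. Coloured symbols are the 4 arrays named in the legend and grey points the other 19; for 9 genes the coloured symbols lie above all grey points, and for Amy2a5 they overlap the grey points.

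Amy2a5, pancreatic alpha-amylase, which cleaves starch, was the exception in the ratio of its brighter probe. That probe had log2 ratios of 7.65, 7.83, 8.70 and 8.00 on the 4 arrays against 6.57 to 8.68 on the other 19, so the groups of arrays overlapped. Its Cy5 signal was 33380, 13820, 27430 and 7535 on the 4 arrays against 3672 to 8706 elsewhere, and 3 of the 4 were the highest of all 23. Livers without the pattern thus gave a strong signal on this probe. Amy1, the amylase gene that liver and salivary gland use, had a probe of its own with Cy5 signals of 20890 to 54510 on those 19 arrays and 32160 to 87460 on the 4. The amylase genes are near-identical copies, and how far the Amy2a5 probe reads Amy1 transcripts was not tested.

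The second Amy2a5 probe separated the livers by Cy5 signal, with 259800, 67360, 171800 and 41620 on the 4 arrays against 52.3 to 1410 elsewhere. Among the other 19 arrays this probe also differed by slide: the 5 arrays of slide 5 read 725 to 1410 and the 14 of slides 1 to 4 read 52.3 to 194. Those 5 arrays held 2 controls and 1 liver from each of the 3 higher doses. The brighter Amy2a5 probe gave 3776 to 6683 on slide 5 and 3672 to 8706 on the other slides among the same 19 arrays, so the slide step was in the second probe and not in the first. The log2 ratio of the second probe did not separate the 4 arrays: it was 7.28, 8.55, 7.93 and 7.94 on them and reached 8.52 elsewhere, on slide 5.

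**Figure D2:**
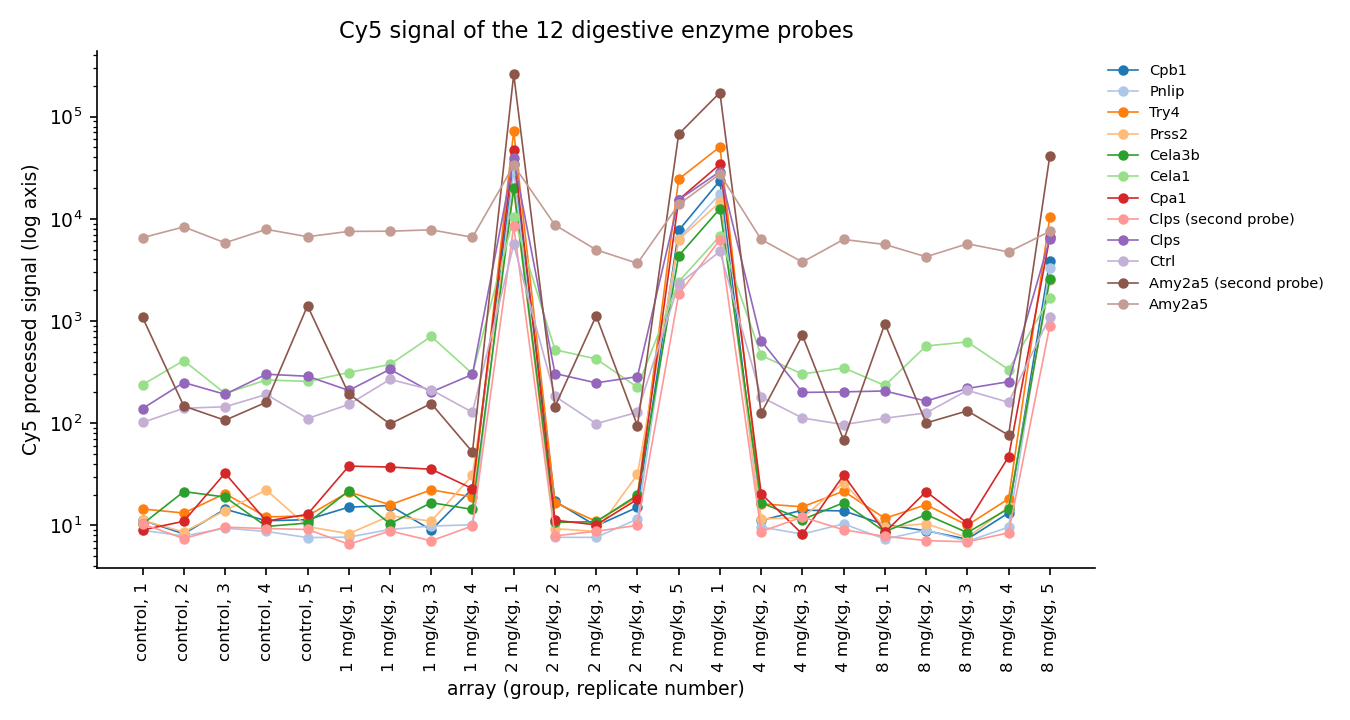
Cy5 processed signal on a log axis (y) of the 12 probes on each of the 23 arrays (x, by group and replicate number), 1 line per probe. The lines peak together on 2 mg/kg replicates 1 and 5, 4 mg/kg replicate 1 and 8 mg/kg replicate 5. The brighter Amy2a5 probe is the exception on the last of these, with 7535, inside its range of 3672 to 8706 on the grouped remaining arrays. The second Amy2a5 probe also steps up to between 725 and 1410 on the 5 arrays of slide 5.

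Levels of different probes cannot be ranked against each other on an array, but 1 probe can be ranked across livers. By Cy5 signal every one of the 12 probes had the same order: 2 mg/kg replicate 1 highest, then 4 mg/kg replicate 1, then 2 mg/kg replicate 5. The 8 mg/kg liver, replicate 5, came next for 11 of the 12, and for the brighter Amy2a5 probe its signal of 7535 lay within the range of the other 19 arrays, 3672 to 8706. The brightest liver, 2 mg/kg replicate 1, exceeded 8 mg/kg replicate 5 by a median of 6.96-fold over the 12 probes, with a range of 4.43-fold to 9.40-fold. Its excess over 4 mg/kg replicate 1 was smaller, a median of 1.39-fold with a range of 1.17-fold to 1.72-fold. The folds between 2 livers were thus of similar size for proteases, lipases and amylase. All members' probes together made up 0.174%, 0.0394%, 0.109% and 0.0255% of the summed Cy5 signal on the 4 arrays, against 0.00147% to 0.00267% on the other 19.

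For the 6 members that were not well above background in any control, only a lower bound of the fold exists. It was taken per array, from normalised Cy5 levels, against the control mean of the dimmest signal still well above background on each array, or the probe's own where higher. Try4 was at least 1280-fold higher in 2 mg/kg replicate 1, and at least 177-fold higher in 8 mg/kg replicate 5, than in controls. The same bounds were at least 822-fold and 112-fold for Cpa1, 588-fold and 63.5-fold for Cpb1, and 519-fold and 54.0-fold for Pnlip. For Cela3b they were at least 352-fold and 42.7-fold, and for Prss2 at least 336-fold and 41.8-fold.

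The order by log2 ratio differed from the order by Cy5. The ratio divides by the Cy3 signal of the reference, which at several of these probes was also higher on the 4 arrays. Replicate 1 at 2 mg/kg had the highest Cy5 of every probe but the highest ratio for Cela1 alone among the 12. Cpa1 gave a Cy3 signal of 1970, 203, 656 and 171 on the 4 arrays, against a median of 22.4 and at most 37.9 elsewhere. The second Amy2a5 probe gave Cy3 signals of 1928, 210, 799 and 190 against at most 6.85 elsewhere, and Cpb1 gave 47.5, 4.82, 13.9 and 5.55 against 6.16 to 32.1. For each of the 12 probes the highest Cy3 signal among the 4 arrays exceeded that of every other array, and for 3 of the 12, those of Prss2 and Cpa1 and the second of Amy2a5, all 4 arrays did. Cy3 was 4.22% of Cy5 for Cpa1 and 0.139% for Cpb1 in replicate 1 at 2 mg/kg, so it was not one fixed share of Cy5. The reason for the Cy3 signal was not tested. At Cpa1 and the second Amy2a5 probe the log2 ratio on the 4 arrays was therefore smaller than the Cy5 signal alone would give.

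**Figure D3:**
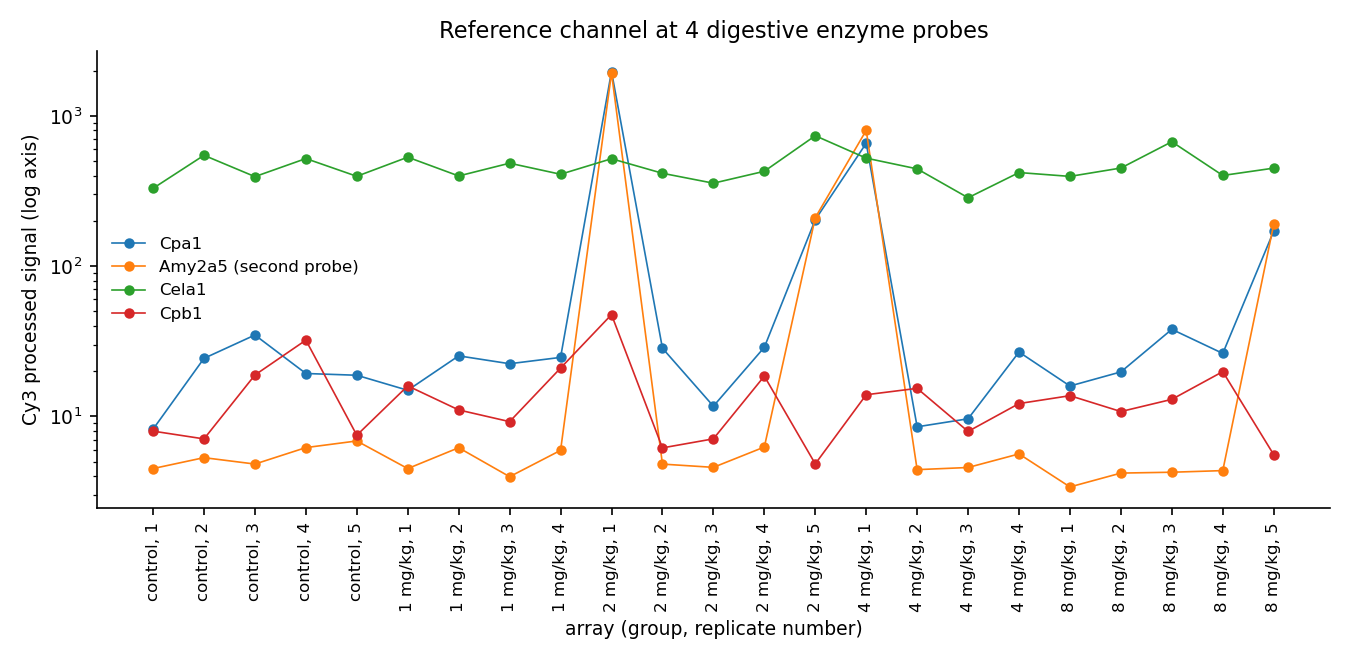
Cy3 processed signal of the universal reference on a log axis (y) at 4 probes on each of the 23 arrays (x, by group and replicate number). Cpa1 and the second Amy2a5 probe reach 1970 and 1928 on 2 mg/kg replicate 1, while Cela1 and Cpb1 vary far less between arrays.

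The dose comparison asked whether furan shifted the members' mean level. In limma's fit over all 37163 genes, with Benjamini-Hochberg adjustment, 0 of 10 members passed an adjusted p of 0.05 at any dose. The share of all genes that passed was 0% for the 1 mg/kg group, 0% for the 2 mg/kg group, 0.0161% for the 4 mg/kg group and 2.52% for the 8 mg/kg group. Since the members were chosen on these values, nothing is read from their count against that background. At an unadjusted p under 0.05 the fit held 1 of 10 members at 2 mg/kg, Cela1, and 0 of 10 at the other doses. The share of all genes under that unadjusted cut is not given here, so nothing is read from this count either. The robust form of limma also gave 0 members at every dose. The 4 comparisons share the 5 control livers.

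The group estimates were imprecise. Cpb1 was not well above background in any control. It was so in 2 of 5 livers at 2 mg/kg (limma adjusted p = 0.916), 1 of 4 at 4 mg/kg (adjusted p = 0.95) and 1 of 5 at 8 mg/kg (adjusted p = 0.871). The remaining livers of these groups were as dim as the controls, so no fold of a group mean is given. Of members measured in every liver, Clps differed from control by 2.42 ± 1.30 (SE) on the log2 scale at 2 mg/kg (limma adjusted p = 0.933), Cela1 by 1.86 ± 0.82 (adjusted p = 0.852) and Amy2a5 by 0.02 ± 0.36 (adjusted p = 0.999). The median difference over the 10 members was 0.12, 2.40, 1.73 and 0.98 from the lowest dose to the highest, where the median over all genes tested lay between -0.03 and -0.01. For the 6 members below background in controls the values behind these medians are fitted differences, not measured folds. The medians had the order of the share of livers with all 10 members well above background, which was 0 of 4, 2 of 5, 1 of 4 and 1 of 5 in the same dose order.

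With the 4 arrays left out, a choice made after the values were seen, 0 of 10 members passed at any dose and the medians were 0.12, 0.14, 0.17 and -0.23. At an unadjusted p under 0.05 were Pnlip and Cpa1 at 1 mg/kg and Pnlip at 8 mg/kg. Without the share of all genes under that cut, nothing is read from these. Neither gene was well above background on any of those 19 arrays, so no fold is given. Over the whole array 597 genes instead of 936 passed at 8 mg/kg and 2 instead of 6 at 4 mg/kg. The higher share among the 936 was 56.4%, and it was 77.1% without loess, 69.5% with normexp correction and 59.5% without the 4 arrays.

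Within slides, the member values for a dose and a control of the same slide gave the same picture. On slide 1 the median member difference was 6.25 for 4 mg/kg replicate 1 and 5.57 for 8 mg/kg replicate 5 against control replicate 4. On slide 3 it was 6.46 for 2 mg/kg replicate 5 against control replicate 2. In the 11 other combinations of a dose and the control of its slide it lay between -0.49 and 0.32, and slide 2 held no control.

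**Figure D4:**
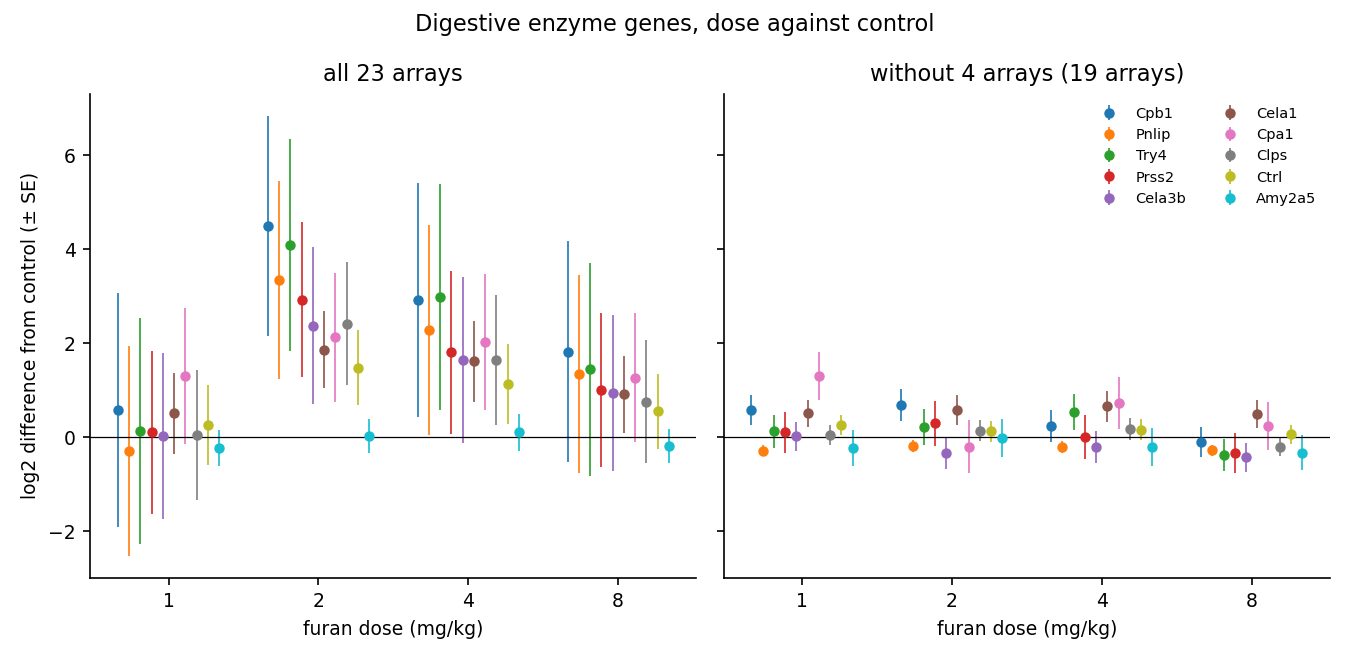
Log2 difference from control with its SE (y axis) at each furan dose (x axis) for the 10 genes, from limma's fit of all 23 arrays (left) and of 19 arrays without the 4 high ones (right). For the 6 genes not well above background in controls the points are fitted differences, not measured folds. On the left Cela1 lies at 1.86 at 2 mg/kg with an SE of 0.82, and on the right the medians of the 10 genes lie between -0.23 and 0.17.

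The spread of the members within groups was wide, and it was also the measure that chose them. The residual SD of Cpb1 was 3.90 on the log2 scale, the largest of any member, against a median of 0.34 over all genes tested. Try4 had 3.76, and Ctrl, the lowest of the 9 members other than Amy2a5, had 1.32, at the 99.1 percentile. Amy2a5 had 0.60, at the 75.8 percentile. Without the 4 arrays the residual SD of Cpb1 was 0.49 and that of Pnlip 0.16, at the 67.3 and 19.1 percentile of all genes.

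Members followed each other across the 23 arrays, with Pearson r to the mean of the other 9 from 0.89 (Cela1) to 0.99 (Pnlip), and 0.38 for Amy2a5. Over the 19 arrays without the pattern these values ran from -0.44 (Prss2) to 0.58 (Clps), so the common course rested on the 4 arrays. Points share their array, slide and reference, and the values are a description.

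The genes whose course was most like the members' mean were found among 13863 other named genes with Cy5 well above background on at least 4 arrays. The 15 closest, by Pearson r over 23 arrays, had r from 0.93 to 0.98, and from 0.87 to 0.98 without the 2 arrays farthest from the median, 4 mg/kg replicate 1 and 2 mg/kg replicate 1. That check kept the rest of the 4 high arrays in. Over the arrays other than the 4, r ran from -0.37 (Gp2) to 0.42 (Serpini2). The rank correlation over all 23 arrays ran from 0.25 (Gm5771) to 0.60 (Pdia2), so the likeness rested on the 4 arrays. Among the closest were Cel, carboxyl ester lipase (r = 0.98), Sycn, syncollin of the zymogen granule (r = 0.98), Cela3a, an elastase (r = 0.98), and Reg1, a secreted lectin-like protein of acinar cells (r = 0.98). Next to these stood 2210010C04Rik, Try5, Pdia2, Reg2, Pla2g1b, Gp2, Serpini2, Gm5771, Zg16 and Rnase1. All but Gm5771 were on the acinar lists described next, which were written with earlier results known. Each of the 15 had all 4 arrays above every other array. The members' mean was high on those 4 arrays alone, so ranking genes by likeness to it picks such genes. Their separation is therefore a description and not further support.

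Of 19 other acinar digestive enzymes, 13 had a matched probe, and 11 of the 13 had their 4 highest log2 ratios on the same 4 arrays as the members. The mean of the 13 relative to controls was 3.77 to 5.36 on those arrays and -0.62 to 0.22 on the other 19. Try5, a trypsinogen, ran from 5.89 to 7.72 on the 4 arrays and up to 0.16 elsewhere, and Cela3a from 6.35 to 7.84 against at most -0.60. Pnliprp1, a lipase-related protein, ran from 6.18 to 7.75 against at most 3.06. The trypsinogen-like 2210010C04Rik ran from 3.80 to 7.57 against at most 0.88, and the elastase Cela2a from 5.76 to 6.57 against at most 4.49. The 2 exceptions, named after their values were seen, were Pnliprp2, with 1.82 on 2 mg/kg replicate 5 below a highest of 2.15 elsewhere, and 1810009J06Rik, not well above background on any array.

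The list of acinar proteins that are not digestive enzymes gave the same arrays for 7 of 16 genes, and the mean of the 16 was 2.72 to 4.56 on them against -0.24 to 0.56. Serpina10 of this list, named after its values were seen, was well above background in every liver, at 6.35 to 8.39 outside the 4 arrays. The list is therefore not one of acinar transcripts alone. Reg1 ran from 8.60 to 10.84 on the 4 arrays and up to 1.41 elsewhere, and Reg2 from 3.71 to 9.35 against at most 0.01. The acinar transcription factors gave it for 0 of 5, and their mean was 0.24 to 0.82 on the 4 arrays against -0.60 to 0.55 on the others. Nr5a2 and Gata4, named after their values were seen, were well above background in every liver, and Ptf1a in none. The count of 0 of 5 therefore cannot show whether acinar factors followed the enzymes. Rbpjl, the acinar subunit of PTF1, had log2 ratios of -1.69 to 0.38 against -3.06 to -1.17, and Bhlha15, a factor of secretory cells, -4.74 to -2.0 against -6.76 to -2.58. Rbpjl was above every other liver on 3 of the 4 arrays, and so was the mean of the 5 factors; 2 mg/kg replicate 5 (-1.69) lay within the others' range for Rbpjl, and 8 mg/kg replicate 5 (0.24) for the mean. For Bhlha15 only 2 mg/kg replicate 5 (-2.0) lay above the others' range.

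In limma's fit 0 of 13 other enzymes, 0 of 16 other acinar proteins, 0 of 5 factors, 0 of 18 islet genes and 0 of 8 duct genes passed at any dose. At an unadjusted p under 0.05 the most in any list and dose was 2, a count not set against the share of all genes under that cut. The median difference of the 13 enzymes was 1.79, 0.95 and 0.37 in the 3 higher dose groups, in rising order.

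Genes of islet and duct cells were read on the same arrays. The mean of 18 islet genes was 0.94 and 0.91 in 2 mg/kg replicate 5 and 4 mg/kg replicate 1, 0.29 in 8 mg/kg replicate 5 and 0.10 in 2 mg/kg replicate 1, against -0.15 to 0.33 in the others. Ppy, the pancreatic polypeptide hormone, was well above background in 2 livers, with log2 ratios of 3.01 in 2 mg/kg replicate 5 and 4.76 in 4 mg/kg replicate 1. It read -0.14 in 2 mg/kg replicate 1, the liver with the highest acinar signal. G6pc2, an islet glucose-6-phosphatase, was not well above background on any array. Of the 18 islet genes 1, Sst, had its 4 highest log2 ratios on the same 4 arrays as the members. Sst read 1.86 in 2 mg/kg replicate 1, 3.50 in 2 mg/kg replicate 5, 2.89 in 4 mg/kg replicate 1 and 2.06 in 8 mg/kg replicate 5. Elsewhere Sst read -0.12 to 1.79, and it was well above background on 2 of the 4 arrays and on none of the others. The mean of 8 duct genes was -0.25 to 0.26 on the 4 arrays and -0.53 to 0.38 elsewhere, and Cftr and Muc1, the duct genes of widest range, peaked at 1.11 in 2 mg/kg replicate 4 and 1.51 in 8 mg/kg replicate 5.

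Markers of neighbouring tissues were set beside the members for the same arrays. Of 8 adipose genes 4 to 7 were well above background on the 4 arrays and 3 to 5 on the others, and their mean was 1.65, 2.16, 2.61 and 0.72 on the 4 arrays against -0.95 to 1.70. Cfd, the adipocyte protein adipsin, had log2 ratios of 7.06, 8.57, 8.89 and 4.84 on the 4 arrays, and Adipoq, adiponectin, had 4.98, 4.64, 5.73 and 3.1. Control replicate 1 had 7.41 for Cfd and 4.24 for Adipoq with a member mean of 0.09, and 2 mg/kg replicate 4 had 4.73 for Cfd with a member mean of 0.04. High adipose genes thus occurred in 2 livers whose members were not high. In 2 mg/kg replicate 4, Try5 was well above background (0.16), as in none of the other livers outside the 4 (-2.54 or lower). Probes of all genes on the lists of acinar products together made up 0.0549% of its Cy5 signal, against at most 0.0404% in those livers and 0.0668% in 8 mg/kg replicate 5. The members alone made up 0.00147% of the Cy5 signal in 2 mg/kg replicate 4, the lowest share among the livers outside the 4. That share came mostly from the brighter Amy2a5 probe, with a Cy5 signal of 3672 against at most 286 at any other member probe there. Both this probe and that of Amy1, at 20890, were at their lowest in this liver. The members' share therefore says little of members other than Amy2a5. The pooled probes also held Serpina10, Klk1 and Erp27, which were well above background in every liver. The part of adipose RNA in the result was not tested.

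The means of 10 gut, 8 stomach and 9 spleen B cell genes on the 4 arrays were -0.50 to 0.19, -0.50 to 0.05 and 0.07 to 0.38, against -0.62 to 0.29, -0.77 to 0.33 and -0.36 to 0.36 elsewhere. The genes of widest range were Tff3 and Alpi for gut, Atp4a and Pgc for stomach, and Cd79a was among them for B cells. None of these 5 had its 4 highest values on the 4 arrays. The mean of 5 mesothelial genes was -0.32 to 0.44 against -1.52 to 0.68, with Wt1 and Upk3b the widest in range. On 3 of the 4 arrays, all but 2 mg/kg replicate 1, 3 of the 5 were well above background, Wt1 and Upk3b among them, against 1 or 2 on the other arrays, and the part of these genes in the result was not tested.

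**Figure D5:**
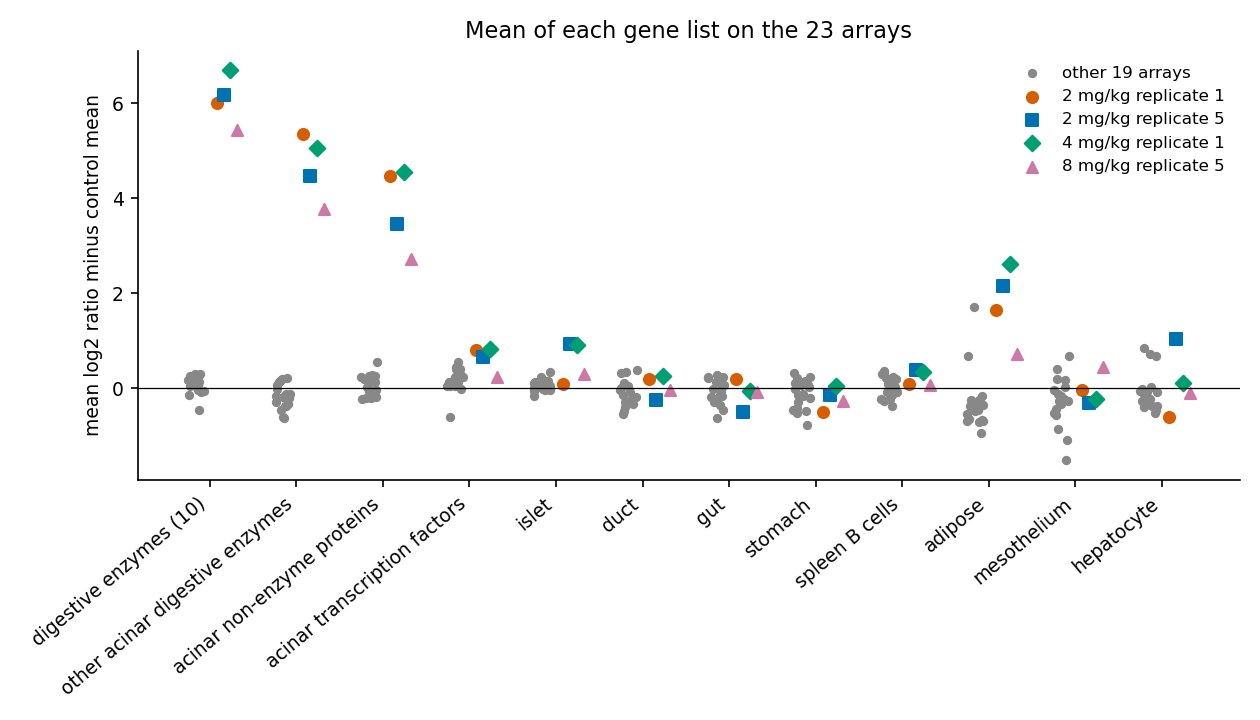
Mean log2 ratio minus the control mean (y axis) of the 10 digestive enzymes and of 11 other gene lists (x axis), 1 point per array. Coloured symbols are the 4 arrays named in the legend and grey points the other 19; the 3 lists of acinar products separate, and the adipose list is highest on 2 of the 4 arrays, with control replicate 1 at 1.70.

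Hepatocyte genes checked the labelled tissue: all 12, Alb, Apoa1 and Ttr among them, were well above background on all 23 arrays. Their mean relative to controls was -0.59 to 1.03 on the 4 arrays and -0.52 to 0.85 on the others. Pck1 and Cps1, the hepatocyte genes of widest range, were both highest in 2 mg/kg replicate 5. The number of probes with Cy5 well above background was 22010 to 30114 over all arrays, and 24185, 30114, 29033 and 26775 on the 4.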

How the data were processed

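Per the labels, liver RNA was labelled with Cy5 and reference RNA with Cy3. The arrays were extracted by the authors with Agilent Feature Extraction 10.7.3.1, per the file headers. The deposited processed signals are intensities on a linear scale; per the file headers, the software had removed background and balanced the dyes. The deposited marks for signal well above background are 0 or 1. The deposited value table holds a linear ratio of Cy5 to Cy3 per probe, and its log2 served as an alternative.

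From these, log2 of processed Cy5 over Cy3 was computed and smoothed by loess within each array (span 0.3, 4 iterations, R 4.3.3, limma 3.58.1). Control and marked spots had weight 0 and were removed (181 to 339 marked spots per array), spots of a probe were averaged, and no filter on dim probes was used. No spot was saturated. The files give no symbols: systematic names were matched to a RefSeq gene table (26413 of 55681 probes, 20018 symbols), and the brightest probe stood for a gene. Groups were compared with limma's lmFit and eBayes over all 23 arrays (18 residual degrees of freedom), with p-values adjusted by Benjamini-Hochberg. The fit was tested on simulated data. The number of arrays limits the precision.

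A list's mean is the mean over its genes of the log2 ratio minus the control mean. Values were given for all 10 members, the 6 other enzymes and the 2 genes of each other list with the widest range over the arrays, and the 15 genes closest by Pearson r; 2 genes that this rule names are not reported here. Islet and adipose values of single arrays, and genes named as exceptions, were added after values were seen. The members and lists were chosen with earlier results of these data known. Alternatives were a filter on dim probes (4 arrays of 1 group with the mark in Cy5), no loess, normexp (offset 50) on median signals, the deposited ratios, all probes averaged, slide or replicate number as a block, the Cy5 level alone, robust eBayes, and each array left out. Labels and files do not say that numbers pair mice. Deviations of same-numbered arrays from their group means correlated at -0.17 to 0.30. Protein sequences were not used here.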

Additional observations from a re-analysis of the deposited data

Results flagged for a closer look

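For 8 of the 10 members a single liver lay far outside the rest of its dose group, by the gap to its nearest neighbour over the group's range, and 14 of the 50 gene and group combinations met it. Chance gives about 1 such case in 20 groups, but the members were chosen because single livers stood out on these arrays, so the count is a description and is not read against that rate. At 4 mg/kg it was replicate 1 each time, with log2 ratios of 10.90 for Cpb1 (next highest 0.46), 9.61 for Pnlip (-0.12), 8.16 for Try4 (-1.33), 6.87 for Prss2 (0.25), 7.17 for Cela3b (0.17), 3.89 for Cela1 (0.24) and 6.62 for Clps (0.96). At 8 mg/kg it was replicate 5, with 9.45 for Cpb1 (next highest 0.10), 7.67 for Pnlip (-0.32), 6.61 for Try4 (-1.87), 6.02 for Prss2 (-0.11), 6.39 for Cela3b (0.26), 5.17 for Clps (0.87) and 2.92 for Ctrl (0.72). The 14 cases came from the same 2 arrays and are not independent. The 2 mg/kg group had no such case, and 2 of its 5 livers were high together.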

How the results depend on the processing

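The count of members that passed at each dose, 0 of 10, was the same under every alternative run, and the dim-probe filter left 4 of the 10 members to test. The count of other pancreas genes that passed was 0 under each of them too. With the Cy5 level alone, the mean of the 10 members relative to controls was 6.12 to 8.94 on the 4 arrays and at most 0.46 on the others, and with the deposited ratios 3.89 to 5.53 and at most 0.19. The median member difference at 1 mg/kg moved from 0.12 to -0.34 with slide as a block, to 0.79 with the replicate block and to 0.26 with the Cy5 level alone. With the Cy5 level alone the median member difference at 2 mg/kg was 3.84 against 2.40, the median member difference at 4 mg/kg 2.68 against 1.73, and the median member difference at 8 mg/kg 1.41 against 0.98. The replicate block gave 2.54 against 1.73 at 4 mg/kg and the same medians at 2 and 8 mg/kg, and same-numbered arrays are not known to be paired. The median correlation of deviations from group means was 0.02 for the same number, -0.02 for different numbers and 0.20 for the same slide. Of 23 arrays, 8 correlated best with their own number. Leaving out 1 array at a time gave medians of 0.11 to 0.23 at 1 mg/kg, 1.54 to 3.09 at 2 mg/kg, 0.17 to 2.41 at 4 mg/kg and -0.23 to 1.44 at 8 mg/kg. The lowest values at 2, 4 and 8 mg/kg were those without 2 mg/kg replicate 1, 4 mg/kg replicate 1 and 8 mg/kg replicate 5. For single members and single arrays, 48 of the 1434 alternative values moved by more than the SD within their group. Of all genes, 1597 passed at 8 mg/kg after the dim-probe filter and 1461 with slide as a block, against 936. Leaving out 1 array gave 635 to 1088 at 8 mg/kg, with 660 without 8 mg/kg replicate 5. Counts at 4 mg/kg were between 2 and 18 over the alternatives, against 6, with 2 without control replicate 2 and 12 without 1 mg/kg replicate 1. For 6 of the 10 members the signal in 19 livers was not well above background, so differences among those livers were not detectable.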
